A study of Mus musculus with 6 samples.

Results

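*Gm21985*, *Gm43802* and *Gm26825* are mouse predicted genes, that is, genes that carry a provisional Gm number in place of a name given for a function. They were chosen because their levels in wildtype and *Pou4f3(Δ/+)* cochleae did not overlap when all transcripts of a gene symbol were summed, so the genotype differences given for them are a description and carry no test. They are 3 of the 51802 gene symbols in the deposited data, and each was listed with 1 transcript, so 3 of 128603 transcripts are described. All 3 passed the filter on low counts, 2 of them only through their wildtype samples.

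The study asked which cochlear transcripts differ in a mouse model of DFNA15, a progressive dominant deafness caused by mutations of POU4F3, a transcription factor of hair cells. The samples were cochleae of mice on a C57/BL6J background at 2 months of age, 3 wildtype (replicates 3, 4 and 5) and 3 *Pou4f3(Δ/+)*, here also called heterozygous (replicates 1, 2 and 3), sequenced as bulk RNA with paired-end reads of 150 bases. The *Pou4f3(Δ)* allele is a knock-in carrying an 8 bp deletion and a C-to-T change that creates a stop codon, built from a genomic clone of a strain other than C57/BL6J and targeted in W4 embryonic stem cells, and it is present in every cell of the animal. Nothing in the labels says whether a sample is 1 cochlea, 1 animal or a pool, so the SDs below measure only the spread between these samples. *Pou4f3(Δ/+)* replicate 3 stood apart from its group. Comparing gene counts pairwise (chi-square divided by its degrees of freedom), it was nearer to wildtype replicates 4 (7.26), 3 (10.5) and 5 (14.6) than to *Pou4f3(Δ/+)* replicates 1 (17.1) and 2 (21.4). Without it the fitted log2 fold changes were -8.50 for *Gm21985*, -7.33 for *Gm43802* and 1.60 for *Gm26825*, against -8.48, -7.31 and 1.58 with it.

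Many predicted genes come from automated or manual annotation of single cDNAs and of sequence resemblance. A read-through transcript joins exons of neighbouring genes on the same strand. A processed pseudogene is a copy of a spliced messenger RNA that was reverse transcribed and inserted elsewhere in the genome, and an antisense transcript runs along the opposite strand of another gene. Reads from such transcripts can also match the gene from which the sequence comes, and a program that estimates transcript levels then has to divide those reads. In bulk tissue, fewer cells of a type and less RNA per cell cannot be told apart.

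The annotation of the 3 genes (GENCODE M21 on GRCm38) placed them in 3 different classes. *Gm21985* (ENSMUSG00000096764, transcript ENSMUST00000141047) spanned chromosome 2 from 112266314 to 112406319 on the plus strand and had 28 exons and 4532 spliced bases. The gene was annotated as protein coding and its transcript as subject to nonsense-mediated decay, the pathway that degrades messages with an early stop codon. *Gm43802* (ENSMUSG00000105338, ENSMUST00000197826) was a processed pseudogene with 1 exon of 637 bases on chromosome 3 from 142547882 to 142548518, plus strand. *Gm26825* (ENSMUSG00000097554, ENSMUST00000181751) was a long intergenic noncoding RNA of 2 exons and 2026 spliced bases on chromosome 5 from 5781530 to 5783636, plus strand. The deposited files give *Gm43802* the ortholog number K06128 (lysophospholipases), which it shares with *Lypla1*.

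*Gm21985* shared its 3′ end with *Katnbl1*, which encodes a regulator of the microtubule-severing protein katanin and lies on the same strand. Its exons 26 to 28 (403 bases, 8.89% of the spliced length) lay within exons of *Katnbl1*.

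*Gm43802* lay entirely inside the last exon of *Gbp7*, which encodes an interferon-induced guanylate-binding protein. Its 637 bases were positions 3347 to 3983 of the 5614-base transcript ENSMUST00000045097 of *Gbp7*, on the same strand, beginning 1307 bases after the stop codon and making up 11.3% of that transcript. The second *Gbp7* transcript (ENSMUST00000171263) did not hold them. By its own sequence *Gm43802* resembled *Lypla1*, an acyl-protein thioesterase gene, with 77.3% identity over 642 alignment columns (113 mismatches and 33 gap positions). The aligned stretch of the *Lypla1* transcript ENSMUST00000027036, positions 154 to 775, fell within its coding sequence, positions 92 to 784.

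*Gm26825* ran along the opposite strand of *Gm15459* (ENSMUSG00000100801, chromosome 5 from 5781615 to 5783555, minus strand), a processed pseudogene of *Hspa8*, the constitutive heat shock cognate chaperone HSC70. Of the 2026 exonic bases of *Gm26825*, 1860 (91.8%) were opposite *Gm15459*. Its exon 1 of 1940 bases matched the reverse complement of the *Hspa8* transcript ENSMUST00000015800 at 99.6% identity, with 5 mismatches and 3 gap columns, and over the 1855 columns within the *Hspa8* coding sequence 5 bases differed. The following stretches of 150 bases, the length of 1 read, show this near identity. The first is exon 1 of *Gm26825* (chr5:5782999-5783148, plus strand, GRCm38) and the second is the reverse complement of the matching part of the *Hspa8* coding sequence, with the 2 bases that differ in capitals. The window was taken as the one with the most differences.
Gm26825: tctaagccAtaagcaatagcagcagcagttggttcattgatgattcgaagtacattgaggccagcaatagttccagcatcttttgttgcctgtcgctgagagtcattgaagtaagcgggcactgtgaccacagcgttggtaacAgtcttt
Hspa8: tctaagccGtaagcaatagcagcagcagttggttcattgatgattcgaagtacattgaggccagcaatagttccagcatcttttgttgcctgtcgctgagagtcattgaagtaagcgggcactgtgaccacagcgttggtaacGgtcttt

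**Figure D1:**
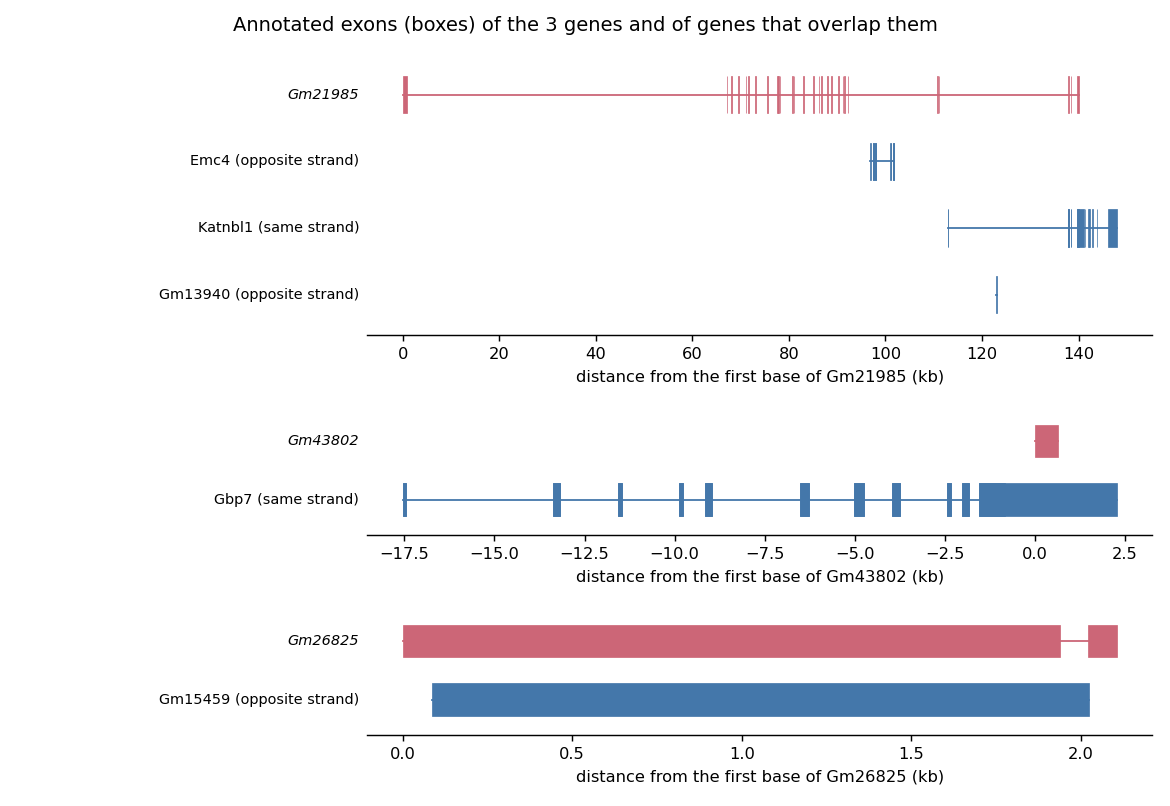
Annotated exons (boxes) and introns (lines) of the 3 predicted genes (red) and of genes overlapping them (blue), plotted by distance in kb from the first base of each predicted gene. *Gm21985* ends within *Katnbl1*, *Gm43802* lies within the last exon of *Gbp7*, and *Gm26825* lies opposite *Gm15459*.

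The share of each transcript that a read could not assign to it alone was counted as the share of its 31-base words also found, on either strand, in annotated transcripts of other genes. For *Gm43802* it was 100% (all 607 words, each in *Gbp7*). For *Gm21985* it was 92.6%, with 334 of 4502 words of its own and 8.31% shared with *Katnbl1*, a small share of all that is shared. For *Gm26825* it was 94.6%, with 107 of 1996 words of its own, and the 5 genes that held the largest shares were *Gm15459* (91.4%), *Hspa8* (87.0%) and the Hspa8-like processed pseudogenes *Gm8355* (64.2%), *Gm6210* (58.9%) and *Gm7232* (43.3%), all on the opposite strand. Other genes held smaller shares. On its own strand only 15% of the words of *Gm26825* were shared. The sources used here do not say whether the libraries kept strand, and without strand, reads of *Gm26825* and of *Gm15459* or *Hspa8* cannot be told apart over these stretches. The values of all 3 genes are therefore uncertain estimates.

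*Gm21985* was detected in every wildtype sample and in no *Pou4f3(Δ/+)* sample. Its expected counts (estimated fragments, which need not be whole) were 39.6, 51.6 and 41.2 for wildtype replicates 3, 4 and 5, while heterozygous replicates 1, 2 and 3 each stood at 0. The groups did not overlap. As CPM, counts scaled by TMM to a common library size, this was 2.78 ± 0.718 (SD, n = 3) against 0, at least 14.7-fold lower in *Pou4f3(Δ/+)* when each of its libraries is set to a floor of 3 counts. Per length, its level was 0.51, 0.80 and 0.53 FPKM (fragments per kilobase, scaled to library size) in wildtype. In the heterozygous samples 3 counts correspond to 0.0374 to 0.0451 FPKM, so a count of 0 there allows a level of up to 0.0451 FPKM, for counting error only.

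*Gm43802* showed the same form at a lower count. Wildtype replicates 3, 4 and 5 gave 14.8, 24.2 and 19.8 counts, and heterozygous replicates 1, 2 and 3 gave 0.023, 0 and 0. The groups did not overlap, with 1.24 ± 0.40 CPM (SD, n = 3) in wildtype, at least 6.54-fold lower in *Pou4f3(Δ/+)* at the same floor. Its level per length was 1.35, 2.65 and 1.81 FPKM in wildtype and was listed as 0 in each *Pou4f3(Δ/+)* sample, where 3 counts correspond to 0.266 to 0.321 FPKM.

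*Gm26825* differed in the other direction and was present in all 6 samples. Wildtype replicates 3, 4 and 5 gave 44.5, 55.98 and 75.8 counts, and heterozygous replicates 1, 2 and 3 gave 202.4, 163.5 and 159.6. The groups did not overlap, and the lowest *Pou4f3(Δ/+)* CPM was 2.4 times the highest wildtype CPM. The mean was 3.66 ± 0.938 CPM in wildtype and 10.96 ± 0.408 CPM in *Pou4f3(Δ/+)* (SD, n = 3 each), 3.0-fold higher, with a fitted log2 fold change of 1.58 (standard error 0.21). Per length, the means were 1.79 ± 0.470 and 5.41 ± 0.223 FPKM. The wildtype samples were more spread out than the *Pou4f3(Δ/+)* samples.

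**Figure D2:**
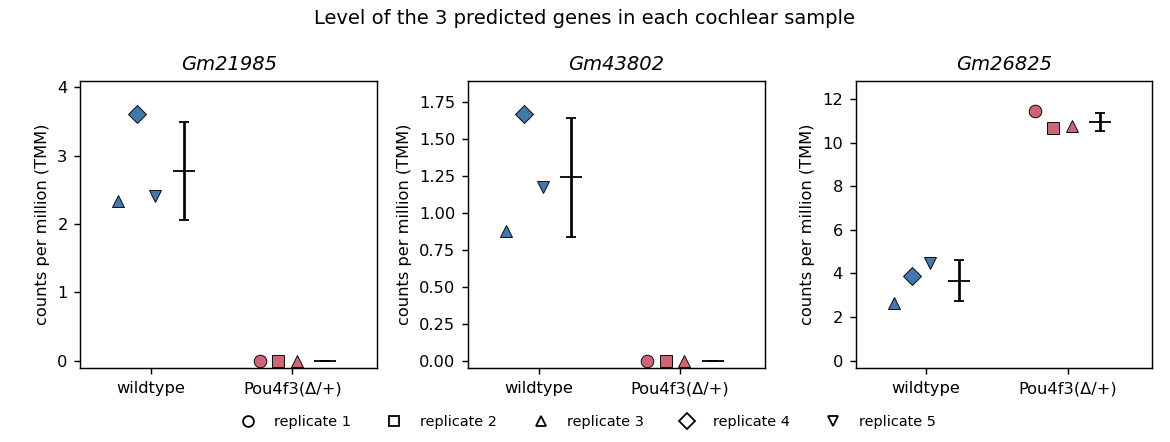
Level of each predicted gene in each of the 6 cochlear samples, in CPM after TMM scaling, with points shaped by replicate number and bars giving the mean ± SD of 3 samples. *Gm21985* and *Gm43802* lie at 0 in *Pou4f3(Δ/+)* and above 0 in every wildtype sample, and *Gm26825* lies between 10.7 and 11.4 in *Pou4f3(Δ/+)* and between 2.62 and 4.46 in wildtype.

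Groups that do not overlap were common in these data. Of the 17136 genes that passed the filter, 2170 (12.7%) had all samples of one genotype above all of the other, 1130 (6.59%) with *Pou4f3(Δ/+)* lower and 1040 (6.07%) with *Pou4f3(Δ/+)* higher. Since the 3 genes were chosen by this property, nothing is read from it for them. Of the 2192 predicted genes tested, 102 had all *Pou4f3(Δ/+)* samples lower and 146 had them all higher, together 11.3%. Their median log2 fold change was 0.02, and their median absolute log2 fold change was 0.21, against 0.12 over all genes tested. In the classes to which *Gm43802* and *Gm26825* belong, the groups did not overlap for 13.7% of 444 processed pseudogenes tested (11 with *Pou4f3(Δ/+)* lower, 50 higher) and for 12.2% of 336 long intergenic noncoding RNAs (14 lower, 27 higher), with median absolute log2 fold changes of 0.22 and 0.22. For the 14647 protein-coding genes tested, the gene class of *Gm21985*, the share was 12.7% (1017 lower, 849 higher) and the median absolute log2 fold change 0.11. Among the 4795 genes whose mean level lay in the range spanned by the 3 described genes, the share was 11.7% and the median absolute log2 fold change 0.25. With edgeR's quasi-likelihood test and Benjamini-Hochberg adjustment, 0 of 17136 genes (0.0%) and 0 of 38347 transcripts had an adjusted p under 0.05, where 1309 genes (7.64%) and 1586 transcripts (4.14%) had an unadjusted p under 0.05. Without *Pou4f3(Δ/+)* replicate 3 the same edgeR test called 193 genes. DESeq2 called 64 of the 14122 genes for which it gave an adjusted p (0.453%) and 130 of 38249 transcripts (0.34%).

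By absolute fitted log2 fold change among the predicted genes whose groups did not overlap, *Gm21985* came 1st, *Gm43802* 2nd and *Gm26825* 11th. The first 2 ranks rest on fitted values for groups at or near 0, which depend on the count assumed there, and with limma-trend on log2(FPKM + 0.5) the fitted differences of *Gm21985*, *Gm43802* and *Gm26825* were -1.15, -2.25 and 1.39. *Gm26964*, a long intergenic noncoding RNA that came 3rd, gave 33.4, 55.6 and 29.3 counts for wildtype replicates 3, 4 and 5, and 0.0153, 14.0 and 9.64 for heterozygous replicates 1, 2 and 3 (log2 fold change -2.26, standard error 0.76). *Gm45244*, an unclassified transcript still to be checked by experiment, came 4th with 8.12, 6.90 and 7.55 counts against 21.1, 42.0 and 21.4 (log2 fold change 1.89, standard error 0.44). Unlike *Gm21985* and *Gm43802*, *Gm26964* was counted in 2 of its 3 *Pou4f3(Δ/+)* samples.

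**Figure D3:**
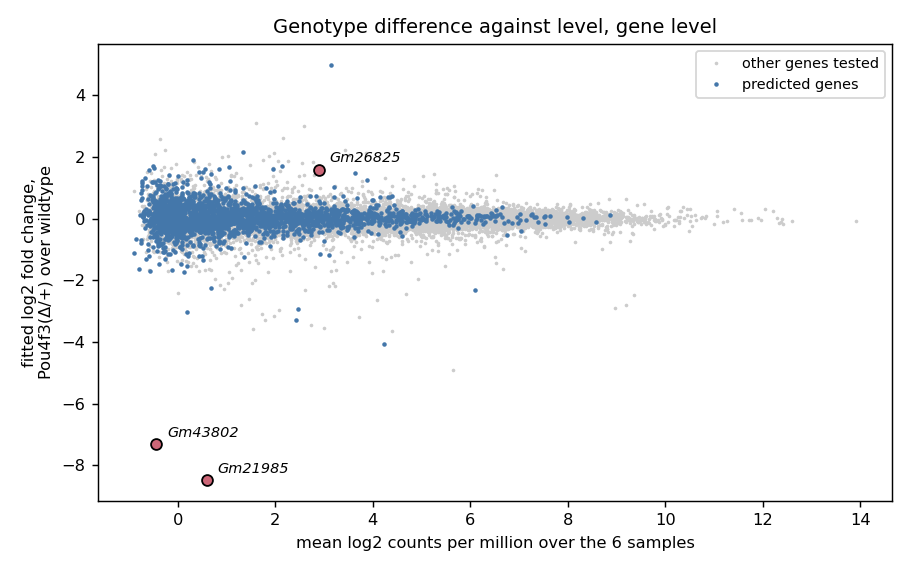
Fitted log2 fold change (*Pou4f3(Δ/+)* over wildtype) against mean log2 CPM over the 6 samples for the 17136 genes tested, with predicted genes in blue and the 3 described genes in red. *Gm21985* and *Gm43802* lie at the lower left, where the fitted value depends on the count assumed for a sample at 0, and *Gm26825* lies above the bulk of the genes.

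The pattern of *Gm21985* and *Gm43802*, at least 10 counts in every wildtype sample and under 1 in every *Pou4f3(Δ/+)* sample, was met by 34 of 38347 transcripts (0.0887%). For 32 of these 34 the gene had other listed transcripts, and the remaining 2 were the transcripts of *Gm21985* and *Gm43802*. The reverse pattern, absent from wildtype, was met by 27 transcripts (0.0704%), each of them 1 of several of its gene. Summed by gene, 2 of 17136 genes (0.0117%), *Gm21985* and *Gm43802*, met the first pattern and 0 met the reverse. The first pattern was drawn from the values of these 2 genes, by which they were also chosen. That they meet it is therefore a description and carries no test.

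The difference of *Gm21985* was not seen in *Katnbl1*, which bears only on the exons that they share and not on the rest of the transcript. *Katnbl1* stood at 33.1 ± 2.47 CPM (SD, n = 3) for wildtype against 33.3 ± 1.62 for heterozygous samples (log2 fold change 0.01 ± 0.09 SE, edgeR adjusted p = 0.984). The main *Katnbl1* transcript, ENSMUST00000028552, was at 10.04 to 11.9 FPKM for wildtype and 10.6 to 11.7 FPKM for heterozygous samples.

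*Emc4*, *Nop10* and *Emc7*, also around *Gm21985*, had small differences that did not pass the test. *Emc4*, which encodes a subunit of the endoplasmic reticulum membrane complex and lies on the opposite strand inside the span of *Gm21985* without touching its exons, differed by -0.11 ± 0.09 on the log2 scale (SE, edgeR adjusted p = 0.765). The nearest tested genes outside the span, *Nop10* (3045 bases away, a small nucleolar ribonucleoprotein component) and *Emc7* (48678 bases away, another subunit of the same complex), differed by -0.08 ± 0.10 and 0.04 ± 0.08 (SE, edgeR adjusted p = 0.85 and 0.917). *Gm13940*, a processed pseudogene in an intron of *Gm21985*, had 0 counts in all 6 samples.

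*Gbp7*, whose last exon holds *Gm43802*, was lower in every *Pou4f3(Δ/+)* sample than in any wildtype sample without passing the test. Wildtype replicates 3, 4 and 5 stood at 87.3, 66.0 and 117 CPM, and heterozygous replicates 1, 2 and 3 at 57.2, 59.8 and 56.9 CPM (log2 fold change -0.64 ± 0.18 SE, edgeR adjusted p = 0.643). The wildtype samples spread widely while the *Pou4f3(Δ/+)* samples lay close together. The *Gbp7* transcript that contains the bases of *Gm43802*, ENSMUST00000045097, was at 14.7, 11.1 and 20.2 FPKM in wildtype and 9.51, 10.3 and 9.85 FPKM in *Pou4f3(Δ/+)*. *Gm43802* made up 0.981%, 2.48% and 0.981% of the joined counts of both genes in wildtype replicates 3, 4 and 5, and the joined log2 fold change was -0.66 ± 0.17 (SE), close to that of *Gbp7* alone.

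The wildtype sample with the most *Gm43802*, replicate 4, was the one with the least *Gbp7*. However, *Gm43802* was lowest in wildtype replicate 3, while *Gbp7* was highest in wildtype replicate 5. A relation between *Gm43802* and *Gbp7* was not tested. The neighbouring guanylate-binding protein genes *Gbp5* (25538 bases away) and *Gbp3* (11508 bases away) differed by -0.89 ± 0.29 and -0.63 ± 0.28 on the log2 scale (SE, edgeR adjusted p = 0.643 for both). *Gbp5* had 19.4, 11.3 and 27.4 CPM in wildtype and 8.65, 12.7 and 10.2 in *Pou4f3(Δ/+)*, so its groups overlapped, and so did those of *Gbp3*, at 48.6, 40.6 and 81.3 against 37.5, 25.1 and 47.4 CPM. In all 3 of these genes wildtype replicate 5 was highest, and without it the differences were -0.41 for *Gbp7*, -0.55 for *Gbp5* and -0.28 for *Gbp3*. *Lypla1*, the gene that *Gm43802* resembles, stood at 88.5 ± 3.04 CPM for wildtype and 83.7 ± 4.98 for heterozygous samples (log2 fold change -0.08 ± 0.07 SE, edgeR adjusted p = 0.794), and *Gm15010*, a pseudogene with the same ortholog number, had 0 counts in all 6 samples.

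*Gm15459*, the pseudogene opposite *Gm26825*, was far more abundant than *Gm26825* and its groups overlapped. Wildtype replicates 3, 4 and 5 stood at 44.1, 63.4 and 64.2 CPM, and heterozygous replicates 1, 2 and 3 at 92.6, 88.3 and 46.9 CPM (log2 fold change 0.41 ± 0.25 SE, edgeR adjusted p = 0.682). With each sample left out it ranged from 0.24 (without *Pou4f3(Δ/+)* replicate 1) to 0.67 (without *Pou4f3(Δ/+)* replicate 3). Per length it was at 22.6 to 32.9 FPKM for wildtype and 24.5 to 47.7 FPKM for heterozygous samples, against 1.27 to 2.18 and 5.21 to 5.65 FPKM for *Gm26825*. *Gm26825* stood at 11.4, 10.7 and 10.8 CPM in heterozygous replicates 1, 2 and 3. The division of reads between *Gm26825* and *Gm15459* is itself an estimate and was not tested.

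*Hspa8* itself was an abundant message, at 2625, 2449 and 2569 CPM for wildtype and 2754, 2676 and 1737 CPM for heterozygous samples (log2 fold change -0.09 ± 0.16 SE, edgeR adjusted p = 0.899). The counts of *Gm26825* were 0.0989%, 0.159% and 0.173% of those of *Hspa8* in wildtype and 0.416%, 0.40% and 0.618% in *Pou4f3(Δ/+)*. Of the other Hspa8-like pseudogenes, *Gm8355* on chromosome 10 had 5.07, 7.57 and 10.7 CPM in wildtype and 14.5, 14.3 and 9.82 in *Pou4f3(Δ/+)* (log2 fold change 0.73 ± 0.27 SE, edgeR adjusted p = 0.643). *Gm6210* had 3 to 11 counts in each sample and did not pass the filter, and *Gm7232* is not among the gene symbols in the deposited data. The nearest tested genes were distant. *Steap2*, a metalloreductase gene 86952 bases away, differed by -0.07 ± 0.11 (SE, edgeR adjusted p = 0.888), and the pseudogene *Tubb4b-ps1*, 1395729 bases away, had 4 to 25 counts in each sample and differed by 0.79 ± 0.53 (SE, edgeR adjusted p = 0.713).

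**Figure D4:**
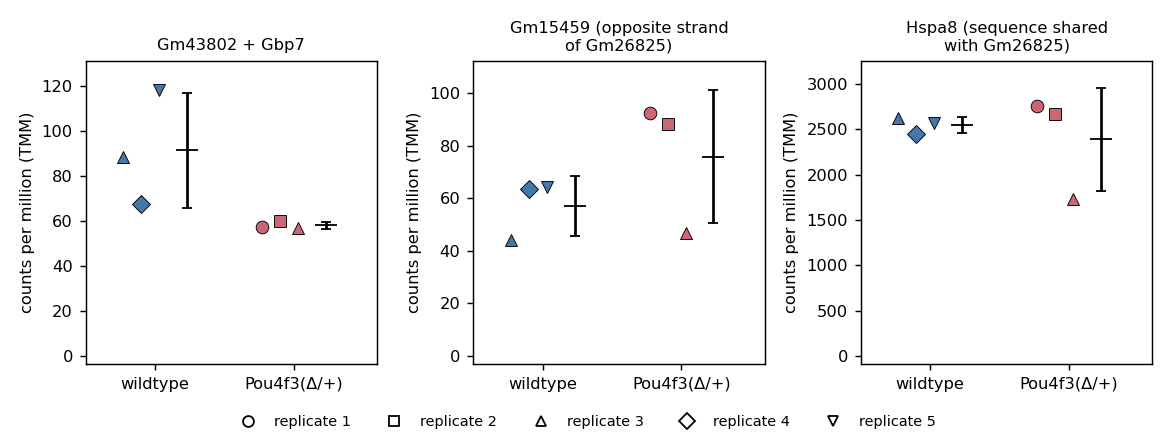
Level, in CPM after TMM scaling, of *Gm43802* joined with *Gbp7*, of *Gm15459* and of *Hspa8* in each of the 6 samples, with bars giving the mean ± SD of 3 samples. The groups overlap except for *Gm43802* joined with *Gbp7*, and *Pou4f3(Δ/+)* replicate 3 lies below the other *Pou4f3(Δ/+)* samples for *Gm15459* and *Hspa8*.

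**Figure D5:**
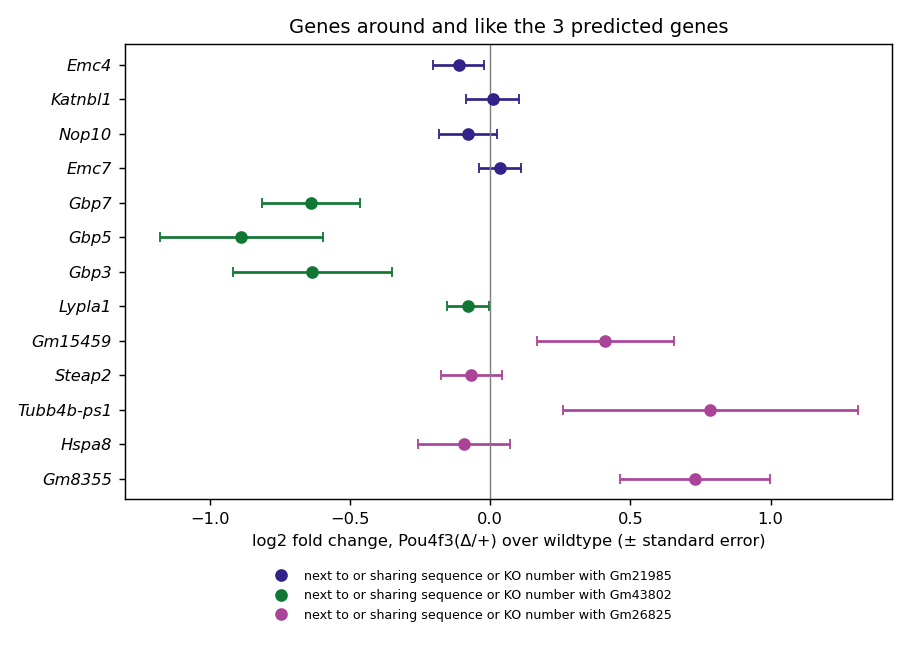
Log2 fold change, *Pou4f3(Δ/+)* over wildtype, with its standard error (bars) for tested genes that overlap, flank, share sequence with or share an ortholog number with *Gm21985* (dark blue), *Gm43802* (green) or *Gm26825* (purple). The plotted genes that overlap or flank *Gm21985* lie between -0.11 and 0.04, the 3 guanylate-binding protein genes lie between -0.89 and -0.63, and the Hspa8-like pseudogenes *Gm15459* and *Gm8355* lie at 0.41 and 0.73.

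The gene whose profile over the 6 samples was most like that of *Gm21985*, by the root mean square difference of centred log2 CPM, was *Gm43802* (0.562, where the median over all other genes was 2.27). This likeness follows from their choice, since both stood at 0 CPM in all 3 *Pou4f3(Δ/+)* samples, and it depends on the prior count of 2 added for the log2 scale. The next were *Pet117*, a cytochrome c oxidase assembly factor (1.28), and *mt-Co3*, a mitochondrially encoded subunit of that oxidase (1.41). *Pet117* had few counts, 25.9, 25.3 and 21.1 in wildtype and 3.45, 1.61 and 7.85 in *Pou4f3(Δ/+)*. *mt-Co3* spread widely within each group, with 33000, 9443 and 8410 counts in wildtype and 480, 1140 and 5046 in *Pou4f3(Δ/+)*. For *Gm43802* the genes of the most similar profile were *Gm21985* (0.562), *Pet117* (0.803) and *4930512H18Rik* (1.04), against a median of 1.73. For *Gm26825* they were *Klk1*, a kallikrein protease (0.23), *Gm26668*, a long intergenic noncoding RNA (0.26), and *Ighv4-1*, an immunoglobulin heavy chain variable segment (0.261), against a median of 0.842. *Klk1* had 5, 8 and 13 counts in wildtype and 22, 21 and 20 in *Pou4f3(Δ/+)*, and *Ighv4-1* had 2, 3 and 8 against 13, 11 and 13, so these likenesses rest on few counts.

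Summed counts per sample ranged from 14295069 to 17696784. Transcripts of the mitochondrial genome held 4.30% to 4.54% of the counts in wildtype and 3.84% to 4.26% in heterozygous samples, with no overlap, and the part of this difference in the results above was not tested. The targeted gene *Pou4f3*, to whose counts both alleles contribute, gave 68, 72 and 88 counts for wildtype replicates 3, 4 and 5, and 66, 97 and 52 for heterozygous replicates 1, 2 and 3. These totals are no check of the labels. All 10 hair cell markers were detected, with a summed level of 164 to 172 CPM for wildtype and 150 to 172 CPM for heterozygous samples, and all 7 supporting cell markers were detected too. The 9 B cell markers summed to 235 to 286 CPM for wildtype and to 539, 593 and 295 CPM for heterozygous replicates 1, 2 and 3, with 5 of 9 higher in every *Pou4f3(Δ/+)* sample (6.07% of all genes tested were higher and 6.59% lower in this way), 0 of 9 called by edgeR and none of the 9 at 0. The part of B cells in the result for *Gm26825* was not tested. The 5 T and NK cell markers summed to 49.5 to 57.3 CPM for wildtype against 51.1 to 69.1 CPM for heterozygous samples (1 of 5 higher in every heterozygous sample, median log2 fold change 1.3 against 0.88 for the B cell list), the 5 erythroid markers to 7930 to 9160 against 8450 to 12200 CPM (1 of 5 higher), and the 5 bone markers to 1520 to 2260 against 1230 to 1600 CPM (2 of 5 lower). The summed ranges of the neutrophil, neuron and Schwann cell lists overlapped too, and edgeR called 0 markers of any list. *Gm26825* stood at 11.4, 10.7 and 10.8 CPM in heterozygous replicates 1, 2 and 3, and its relation to the level of any marker list was not tested.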

How the data were processed

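RNA-seq of cochleae taken at 2 months, 3 wildtype and 3 *Pou4f3(Δ/+)*, was analysed from transcript tables. The authors deposited, per sample, expected counts (not normalized) and FPKM values (scaled to transcript length and library) for 128603 transcripts. The submitters' notes name DESeq2 and the build mm8. The aligner, the counting program and the strand setting are not given in the sources used here. Since 99.6% of the transcript identifiers are in GENCODE M21, positions and sequences were taken from that release on GRCm38.

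Expected counts were summed by gene symbol, rounded and tested with edgeR 4.0.16 in R 4.3.3. The steps were filterByExpr (minimum count 10, minimum total 15), TMM, the quasi-likelihood test without covariates over all 6 samples, and Benjamini-Hochberg adjustment over all genes. The test was checked on simulated data. Shared words of 31 bases were counted with Python 3.11.15, and alignments were made with BLAST+ 2.17.0. Folds against samples at 0 use a floor of 3 counts per library, which, like all such limits, covers counting error only. Alternatives were DESeq2 1.42.0 as a test and as scaling, no filter, limma 3.58.1 on log2(FPKM + 0.5), + 0.1 and + 1, words of 50 and 100 bases, *Gm43802* joined with *Gbp7*, and each sample left out in turn.

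The members and lists were chosen with earlier results of these data known. Genes named are the members, the genes overlapping, flanking, sharing exons or at least 5% of words or an ortholog number with them, the 3 genes of the most similar profile, the 2 predicted genes ranked next among those whose groups do not overlap, and *Pou4f3*. Some results that this rule selects are left out. Depth was 14295069 to 17696784 summed counts per sample, and no 2 samples agreed within counting error (chi-square per degree of freedom of 7.26 or more).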

Additional observations from a re-analysis of the deposited data

How the results depend on the processing

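The number of genes with an adjusted p under 0.05 was 0 with edgeR, 64 with DESeq2, 9 without the filter, 1 with limma-trend on log2(FPKM + 0.1), and 0 to 193 with each sample left out in turn (3 without wildtype replicate 4, 193 without *Pou4f3(Δ/+)* replicate 3). For transcripts it was 0 with edgeR, 130 with DESeq2, 1 without the filter and 0 to 3 with each sample left out (3 without wildtype replicate 3). The cause was not tested. With each sample left out, the fitted values ranged from -8.57 to -8.28 for *Gm21985*, from -7.49 to -7.08 for *Gm43802* and from 1.39 to 1.76 for *Gm26825*. With DESeq2 the values were -7.9 for *Gm21985* and -6.73 for *Gm43802*, and with limma-trend on log2(FPKM + 0.5), + 0.1 and + 1 they were -1.15, -2.81 and -0.685 for *Gm21985* and -2.25, -4.3 and -1.53 for *Gm43802*, so the sizes fitted for these 2 genes depend on the scale while the direction did not change. For *Gm26825* the value with + 1 was 1.21. When each sample was left out, 2 neighbours near 0 changed sign, from -0.0437 to 0.0685 for *Katnbl1* and from -0.00401 to 0.0668 for *Emc7*. Joining with a gene that shares exons is given for *Gm43802* alone (-0.66). *Gbp7* ranged from -0.82 to -0.41, *Gbp5* from -1.15 to -0.55 and *Gbp3* from -0.85 to -0.28, each nearest 0 without wildtype replicate 5. *Tubb4b-ps1* ranged from 0.33 (without wildtype replicate 3) to 1.30 (without wildtype replicate 4). Shared words of 50 or 100 bases left the shares at 92.1% and 90.9% for *Gm21985*, 100% for *Gm43802* and 93.3% and 91.9% for *Gm26825*. No paired analysis was possible because the groups share only the replicate number 3. The depth limits *Gm43802* most, at 14.8 to 24.2 counts in wildtype.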
